A study of Mus musculus with 2 samples.

Results

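The membrane skeleton of the red cell was followed through 9 genes: Sptb, Ank1, Slc4a1, Epb41, Epb42, Dmtn, Add1, Add2 and Tmod1. They were chosen by name as its main structural genes, and all 9 were found by gene identifier among the 43346 genes of each table. Total RNA longer than 200 nucleotides had been sequenced from 2 biological replicates of G1E, starting from 1 ng of RNA per library. The cells, G1E, are 1 immortalised line of mouse erythroid progenitors, labelled as lacking Gata1, of strain C57BL/6J and male sex. The labels define 1 group of untreated cells of 1 line, so levels were described and the libraries were set against each other, and no condition could be tested.

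The skeleton is a spectrin and actin lattice under the membrane that lets the red cell deform and recover its shape. Ankyrin and protein 4.2 tie spectrin to the anion exchanger, which spans the membrane. At the junctions of the lattice, protein 4.1, adducin, dematin and tropomodulin hold the spectrin ends to short actin filaments. Inherited defects of spectrin, ankyrin, protein 4.1, protein 4.2 and the anion exchanger cause hereditary spherocytosis or elliptocytosis. GATA1 is known to activate many erythroid genes, the anion exchanger gene among them.

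Replicate 2 held 40597614 estimated counts and replicate 1 held 31649878. Nuclear protein-coding genes took 18.9% and 26.9% of them, and mitochondrial ribosomal RNA 35.4% and 14.6%. A count of 0 allowed a level of up to 0.0739 and 0.0948 CPM, and every interval and floor given here covers counting error only. All 8 erythroid progenitor markers, among them Gata2, Kit and Tfrc, reached 1 TPM in both libraries (a level per transcript length, relative to all transcripts of the library), and Gata1 transcripts had 12.51 TPM in replicate 2 and 21.96 TPM in replicate 1. Of 7 markers of maturing erythroid cells that were found, 6 were higher in replicate 2, with a summed level of 1477 TPM in replicate 2 and 199 TPM in replicate 1. All 6 lymphocyte and all 5 epithelial and kidney markers had 0 counts. The summed level of the 7 mast cell markers was 27.9 TPM in replicate 2 and 55.6 TPM in replicate 1. Cpa3 alone made up 24.76 and 51.44 TPM of these sums. The 7 megakaryocyte markers summed to 15.75 and 25.74 TPM. Between the libraries the TPM of the median detected gene was 1.46-fold higher in replicate 1, so ratios between libraries are given from counts after TMM scaling, which sets the median gene near 1.

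Promoter windows of 4 genes are shown because these genes differed in how far apart the libraries lay: Epb42 and Tmod1 passed the limits described below, and Sptb and Add2 did not. Each holds 250 bases before and 50 bases after the RefSeq start, on GRCm38.p6, in the direction of the gene. Capitals mark GATAA, the core of the site that GATA factors bind, and CACCC, the core of the site that KLF1 binds, on either strand.
Epb42, chr2:121036828-121037127, minus strand: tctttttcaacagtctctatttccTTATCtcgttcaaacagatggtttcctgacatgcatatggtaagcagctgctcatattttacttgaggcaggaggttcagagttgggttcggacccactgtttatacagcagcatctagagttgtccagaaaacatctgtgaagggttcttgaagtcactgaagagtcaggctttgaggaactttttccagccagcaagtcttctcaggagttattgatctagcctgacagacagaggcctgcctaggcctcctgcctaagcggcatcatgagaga
Tmod1, chr4:46038972-46039271, plus strand: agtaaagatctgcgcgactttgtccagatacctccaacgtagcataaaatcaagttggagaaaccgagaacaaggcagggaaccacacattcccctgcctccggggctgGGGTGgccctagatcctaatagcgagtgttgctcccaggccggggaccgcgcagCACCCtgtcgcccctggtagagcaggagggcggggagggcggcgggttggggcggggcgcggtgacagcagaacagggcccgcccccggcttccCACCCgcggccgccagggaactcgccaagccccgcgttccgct
Sptb, chr12:76710498-76710797, minus strand: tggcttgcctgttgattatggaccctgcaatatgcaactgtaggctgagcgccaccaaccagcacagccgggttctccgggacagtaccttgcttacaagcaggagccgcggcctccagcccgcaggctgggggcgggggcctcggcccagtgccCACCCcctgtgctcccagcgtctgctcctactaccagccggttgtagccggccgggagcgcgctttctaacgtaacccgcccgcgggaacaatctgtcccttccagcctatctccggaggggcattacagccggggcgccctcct
Add2, chr6:86028431-86028730, plus strand: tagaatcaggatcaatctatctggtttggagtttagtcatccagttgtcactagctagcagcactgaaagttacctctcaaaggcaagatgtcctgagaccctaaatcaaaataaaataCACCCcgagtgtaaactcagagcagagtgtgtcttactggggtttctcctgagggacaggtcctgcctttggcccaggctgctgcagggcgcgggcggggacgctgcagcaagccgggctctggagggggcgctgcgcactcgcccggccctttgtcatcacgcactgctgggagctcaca
The Epb42 window held 1 GATAA (as TTATC, at position -226 from the start), the Tmod1 window held 3 CACCC and the Sptb and Add2 windows 1 CACCC each. The Add1 window and the 3 windows of Epb41 held neither motif. Of 32851 promoter windows of the same length, 25.4% held GATAA and 57.5% held CACCC. The E-box CANNTG was counted once in the Sptb, Add1 and Add2 windows, 4 times in the Epb42 window and not in the Tmod1 window, beside 72.3% of all windows. Each motif was counted whether or not it overlapped another. A RefSeq start need not be the start that carried the counts: the Sptb window surrounds the start of Sptb-201, which held 2.62% and 3.14% of the gene's TPM. The Tmod1 window lies downstream of the start of Tmod1-201 at 46038935, which held 92.3% and 82.8%. The Epb42 window holds the starts of its 2 coding transcripts, with 2.27% and 12.9% of the TPM, and the Add2 window lies upstream of the single Add2 transcript in the tables, which starts at 86078084. The windows of Ank1, Slc4a1 and Dmtn were not used here. The motifs describe these letters only, since no binding was measured.

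The levels of the 9 genes covered a wide range, and the order differed between the libraries. Epb41 had the highest mean, 68.4 ± 3.87 TPM (SD, n = 2 throughout), and Tmod1 the lowest, 1.71 ± 0.361 TPM. In replicate 1 alone, Tmod1 lay above Slc4a1 and Dmtn. In between by mean lay Slc4a1 (40.6 ± 55.6 TPM), Sptb (31.2 ± 0.431 TPM), Ank1 (27.2 ± 13.0 TPM), Add1 (23.0 ± 4.28 TPM), Add2 (9.68 ± 1.36 TPM), Epb42 (7.14 ± 6.72 TPM) and Dmtn (4.32 ± 6.04 TPM). The SD of Slc4a1 and of Dmtn exceeded their means, so neither has a place in this order that holds in both libraries. Slc4a1 ranked first in replicate 2 and 8th of the 9 in replicate 1. By mean level, Epb41 lay at the 98.4th percentile of nuclear protein-coding genes and Tmod1 at the 62.6th. The 9 genes together held 0.208% of the TPM of nuclear protein-coding genes in replicate 2 and 0.0765% in replicate 1, and 8 of them reached 1 TPM in both libraries, the exception being Dmtn.

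**Figure D1:**
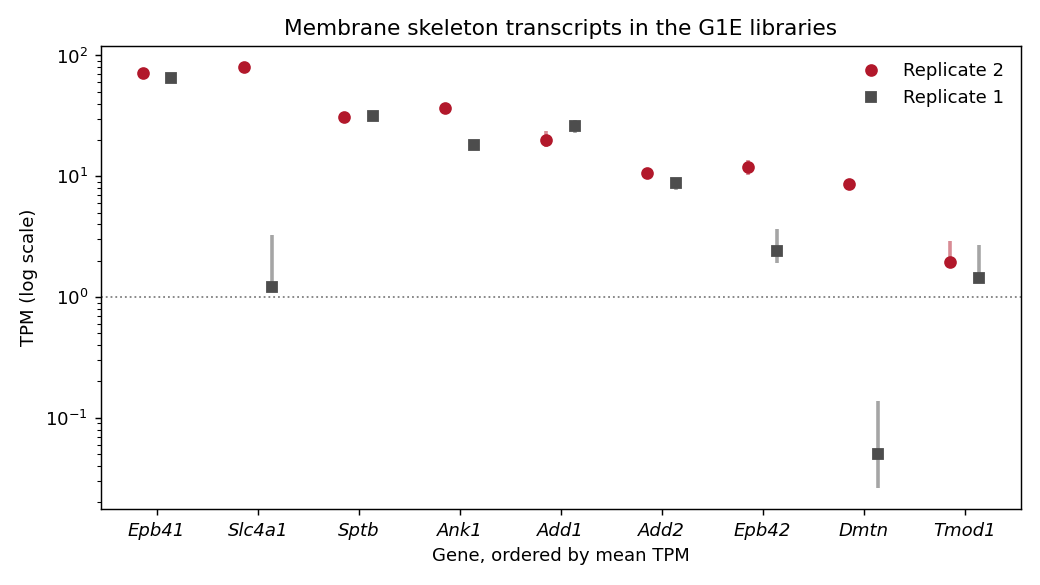
TPM of each skeleton gene (log axis) in replicate 2 (red circles) and replicate 1 (grey squares), with the deposited credibility interval of TPM as a line and a dotted line at 1 TPM. Slc4a1 and Dmtn lay far apart between the libraries (79.88 against 1.22 TPM and 8.59 against 0.05 TPM), while Sptb and Epb41 nearly coincided.

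Between the libraries, 5 of the 9 skeleton genes passed as higher in replicate 2 and 0 as higher in replicate 1. Passing meant a ratio of at least 2-fold and an adjusted p (Benjamini-Hochberg) under 0.05 in an exact binomial test of estimated counts. The test ran over the 11902 genes whose counts in both libraries summed to at least 10. By the same limits 5.12% of these genes passed as higher in replicate 2, 2.2% passed as higher in replicate 1 and 7.32% passed in either direction. All 9 genes had an unadjusted p under 0.05 in this test, as did 4918 of the 11902 tested genes. After TMM scaling all 9 had a ratio above 1, as did 6050 of the tested genes. Epb41 and Add1 had ratios below 1 when the libraries were scaled to total counts. The median log2 ratio of the 9 was 1.17, against 0.01 over all tested genes. The test compares these 2 libraries against counting error and has no replicate check. Scaling to spike-ins left 2 members higher in replicate 2 and put 7 higher in replicate 1, whereas scaling to total counts gave 4 and 0. Over all genes the calls were 609 and 262 with TMM scaling and 396 and 1021 with total counts. An exact negative binomial test left 4 members higher in replicate 2, without Tmod1, and 0 in replicate 1. Its spread (a common coefficient of variation of 26.3%) was estimated from these same 2 libraries, so it is no replicate check either. The markers of maturing erythroid cells and mitochondrial ribosomal RNA were also higher in replicate 2, and their part in these ratios was not tested. In bulk RNA, fewer cells of a type and less RNA per cell cannot be told apart.

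Slc4a1, the gene of the anion exchanger that swaps chloride for bicarbonate and anchors the skeleton (ENSMUSG00000006574.11, chr11:102348824-102366203, GRCm38), had 10387 counts in replicate 2 and 115 in replicate 1. Its level was 79.88 TPM in replicate 2 (deposited credibility interval 76.8 to 80.3) and 1.22 TPM in replicate 1 (1.29 to 3.24, an interval that lies above the point estimate). The authors' posterior mean, a second estimate that also gives weight to transcripts listed at 0, was 78.59 and 2.15 TPM. The libraries lay far apart on either estimate, with a scaled ratio of 101 (95% interval 84.4 to 123). Among 9442 nuclear protein-coding genes with at least 10 counts in each library, no other gene had a larger ratio. Among all 10103 tested nuclear protein-coding genes, those near 0 in replicate 1 included, it ranked 59th. Within the 9442 genes, the 5 nearest to it in log2 ratio were Fn3k (30.8-fold), Hbb-bt (28.5-fold), Rhd (21.5-fold), Hbb-bs (19.0-fold) and Gm867 (18.3-fold), a likeness over 2 libraries only, and the nearest of them lay 1.72 log2 units below Slc4a1. Hbb-bt and Hbb-bs are adult beta globin genes whose reads can be divided between them.

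The place of the anion exchanger gene within the skeleton differed as well. It held 29.4% of the summed TPM of the 9 genes in replicate 2 and 0.787% in replicate 1. Its TPM was 2.58-fold that of Sptb in replicate 2, whereas in replicate 1 the TPM of Sptb was 25.9-fold that of Slc4a1. All estimated counts of Slc4a1 lay on 1 of its 5 annotated transcripts, the coding transcript that starts at 102365280. The transcript annotated from an internal start at 102363704, a processed transcript of 356 bases, had 0 counts in both libraries. In replicate 1 its deposited interval reached 0.578 TPM, beside 1.22 TPM for the gene. The posterior mean there placed 8.88% of the gene on this start. A shorter Slc4a1 form is known from the kidney, where transcription starts inside the gene, and the epithelial and kidney markers Epcam, Krt8, Krt18, Cdh1 and Atp6v1b1 had 0 counts. Whether the transcript from 102363704 is that form was not tested.

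Dmtn, which encodes dematin, an actin-bundling protein of the junctions (ENSMUSG00000022099.12, chr14:70601263-70636048), was close to absent from replicate 1. It had 1012 counts in replicate 2 and 4 in replicate 1, or 8.59 TPM (7.88 to 8.91) and 0.05 TPM (0.0261 to 0.139). The scaled ratio was 284, with a wide interval of 111 to 1045 set by the 4 counts. In that full set, this ratio ranked 16th among 10103 tested nuclear protein-coding genes, in an order that places genes at 0 counts after adding 0.5 counts. The 1012 counts of replicate 2 were all assigned to Dmtn-201 and the 4 of replicate 1 to Dmtn-202, too few to set a share.

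Ank1 and Epb42, whose proteins bind the anion exchanger from below, differed by similar factors. Ank1, ankyrin (ENSMUSG00000031543.14, chr8:22974844-23150497), had 4303 counts in replicate 2 and 1339 counts in replicate 1, with 36.43 and 18.03 TPM. Its ratio was 3.61 (3.39 to 3.84). Epb42, protein 4.2 (ENSMUSG00000023216.9, chr2:121017891-121037072), had 281 and 83 counts, a ratio of 3.80 (2.97 to 4.92). Its TPM moved further, to 11.89 in replicate 2 against 2.39 in replicate 1, and the effective length that divides its counts was 803 bases in replicate 2 and 1635 bases in replicate 1. Most of its counts lay on transcripts annotated as non-coding: the retained intron transcript Epb42-205 (625 bases) had 122 counts in replicate 2 and 0 in replicate 1, and the coding transcripts together had 25.9 and 16.8. The intervals of Ank1 and of Epb42 overlapped, and both lay far below those of Slc4a1 and Dmtn.

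Tmod1, tropomodulin, which caps the slow-growing end of the short actin filaments (ENSMUSG00000028328.9, chr4:46038935-46116032), had the lowest mean level of the members and was the fifth to pass. It had 166 counts in replicate 2 and 83 in replicate 1, with 1.96 and 1.45 TPM, and a ratio of 2.25 (1.72 to 2.96). The lower end of that interval lies under the 2-fold limit, and with libraries scaled to total counts the log2 ratio was 0.64 and Tmod1 no longer passed. The deposited TPM intervals, 1.83 to 2.91 and 1.35 to 2.69, overlapped. Tstd2, on the opposite strand, overlaps the 3′ end of Tmod1 and had 614 and 626 counts, and whether counting used strand was not given in the sources used here.

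The genes of spectrin, protein 4.1 and adducin did not pass at 2-fold, though Sptb and Add2 passed at 1.5-fold. Sptb, beta spectrin, the main lattice protein (ENSMUSG00000021061.11, chr12:76580488-76710547), had 7297 counts in replicate 2 and 5380 in replicate 1 and a ratio of 1.52 (1.47 to 1.58). Its TPM was 30.93 and 31.54, nearly equal. Epb41, protein 4.1, which strengthens the bond between spectrin and actin (ENSMUSG00000028906.11, chr4:131923413-132075321), had 7060 and 6142 counts and a ratio of 1.29 (1.25 to 1.34), with 71.18 and 65.71 TPM.

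Adducin caps the fast-growing filament end and is built from an alpha subunit, Add1, and a beta subunit, Add2. Add1 (ENSMUSG00000029106.10, chr5:34573664-34632308) had 1266 counts in replicate 2 and 1162 in replicate 1, with 19.94 and 25.99 TPM and a ratio of 1.22 (1.13 to 1.33). Add2 (ENSMUSG00000030000.8, chr6:86028681-86124409) had 937 and 556 counts, with 10.64 and 8.72 TPM. Its ratio of 1.89 (1.70 to 2.11) fell just short of the 2-fold limit, and its interval lay above that of Add1. The TPM of Add1 was 1.87-fold that of Add2 in replicate 2 and 2.98-fold in replicate 1.

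**Figure D2:**
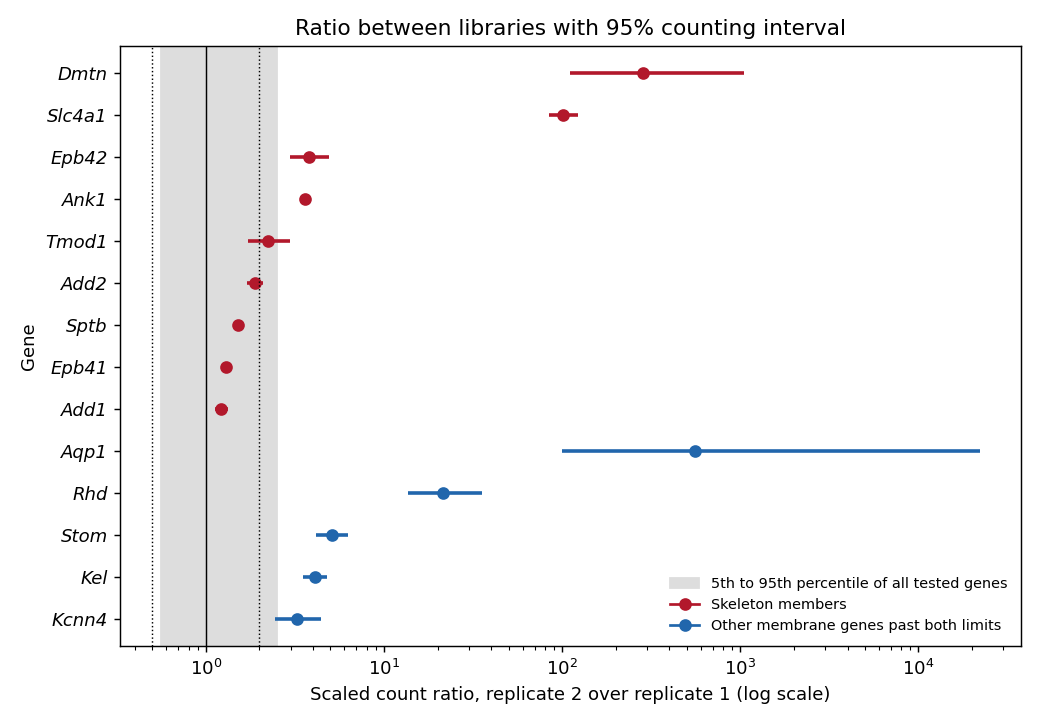
Scaled count ratio of replicate 2 over replicate 1 (log axis) with its 95% counting interval for the 9 skeleton genes (red) and for the other membrane genes past both limits (blue). The grey band spans the 5th to 95th percentile of all tested genes (0.562 to 2.50), the dotted lines mark 2-fold either way, and Dmtn, Slc4a1, Epb42 and Ank1 lie to the right of the band.

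Other genes of the red cell membrane were read from a list of 28, all tested, of which 5 passed as higher in replicate 2 and 0 as higher in replicate 1. Their median log2 ratio was 0.14. At an adjusted p under 0.05 with no limit on fold, 15 were higher in replicate 2 and 1, Xk, in replicate 1. Over all 11902 tested genes these numbers were 2077 and 1771. Those that passed were the water channel Aqp1 (496 counts in replicate 2 and 1 in replicate 1, ratio 557, 99.5 to 22046), the blood group gene Rhd (382 and 20, 21.5-fold), Stom, which encodes stomatin (540 and 119, 5.10-fold), the blood group gene Kel (780 and 214, 4.09-fold) and the potassium channel Kcnn4 (180 and 62, 3.26-fold). The 5 most abundant did not pass: Actb, the actin of the short filaments (505 ± 136 TPM), Bsg (133 ± 30.6 TPM), Rhag (109 ± 31.8 TPM), Cd47 (82.1 ± 26.2 TPM) and Capzb (53.2 ± 16.5 TPM).

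Protein 4.1 and beta spectrin bind each other at the junctions. By gene totals the TPM of Epb41 was 2.30-fold that of Sptb in replicate 2 and 2.08-fold in replicate 1. Much of the Epb41 total lay on transcripts annotated as non-coding. Its coding transcripts had 8.86 TPM in replicate 2 and 31.77 TPM in replicate 1, against 30.93 and 31.54 TPM for Sptb. The junction genes Add3, Tpm1 and Mpp1 had ratios of 1.01, 1.02 and 1.01, with intervals that included 1.

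Each skeleton gene has paralogs that serve other cell types, and the red cell member did not always dominate its family. In the anion exchanger family Slc4a1 held 96.2% of the TPM in replicate 2 and 12.8% in replicate 1, where Slc4a2, the widely expressed exchanger, had 3.19 and 8.29 TPM. In the ankyrin family Ank1 held 76.2% and 44.2%, with 36.43 and 18.03 TPM beside 11.4 and 22.75 TPM for Ank2. Of the Ank1 total, transcripts with at least 42 exons had 14.2 TPM in replicate 2 and 6.11 TPM in replicate 1. Short transcripts from an internal start, described below, had 18.46 and 10.66 TPM. Epb42, which belongs to the transglutaminase family but has no enzyme activity, held 75.3% and 28.6% beside Tgm1 and Tgm2. By gene totals the red cell gene led in these 3 families in replicate 2, and Slc4a2, Ank2 or Tgm2 led in replicate 1. The Epb42 total in replicate 2 lay mostly on the retained intron transcript Epb42-205 (8.25 of 11.89 TPM), its coding transcripts had 0.27 TPM there against 2.5 TPM for Tgm2, and by estimated counts the mean share of Epb42 was 31.2%.

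In other families the share differed less. By gene totals Epb41 held 85.5% of the protein 4.1 family in replicate 2 and 81.2% in replicate 1, with Epb41l5 (12.96 ± 2.80 TPM) next. Transcripts of Epb41 annotated as coding had 8.86 TPM in replicate 2 and 31.77 TPM in replicate 1. The gene total of Epb41l5 was 10.98 and 14.94 TPM, so in replicate 2 it lay above the coding transcripts of Epb41. Sptb held 65.1% and 57.0% of the spectrins, beside Sptbn1 (15.8 ± 4.23 TPM) and Sptan1 (4.03 ± 0.99 TPM), and Add1 with Add2 held 76.3% and 70.1% of the adducins, the rest being Add3 (12.1 ± 3.73 TPM). Tmod1 stayed the minor tropomodulin with 14.4% and 8.11%, since Tmod3, the widely expressed form, had 10.08 and 14.36 TPM. Dmtn held 91.0% and 31.3% of the dematin and villin family, but in replicate 1 Dmtn had 0.05 TPM and its paralogs 0.11 TPM, so the share there rests on very few counts.

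Of the 33 paralogs 16 had 0 counts in both libraries and 15 were tested, with a median log2 ratio of 0.02. As higher in replicate 2 there were 2 that passed, and as higher in replicate 1 there were 0. Svil, the gene of supervillin, had 139 counts in replicate 2 and 0 in replicate 1, at least 52.0-fold higher against a floor of 3 counts per library (41.8-fold at the lower end of the 95% counting interval), and Epb41l1 had 17 and 4 counts (4.77-fold, 1.56 to 19.5). At an unadjusted p under 0.05 there were 4 of the 15 tested, beside 4918 of the 11902 tested genes. The other 2 were Ank2 (ratio 0.791, 0.737 to 0.849) and Slc4a2 (0.804, 0.652 to 0.988). Both had ratios below 1, short of 2-fold, and the adjusted p of Slc4a2 in the binomial test was 0.094. Ank2 was the only paralog higher in replicate 1 at an adjusted p under 0.05.

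**Figure D3:**
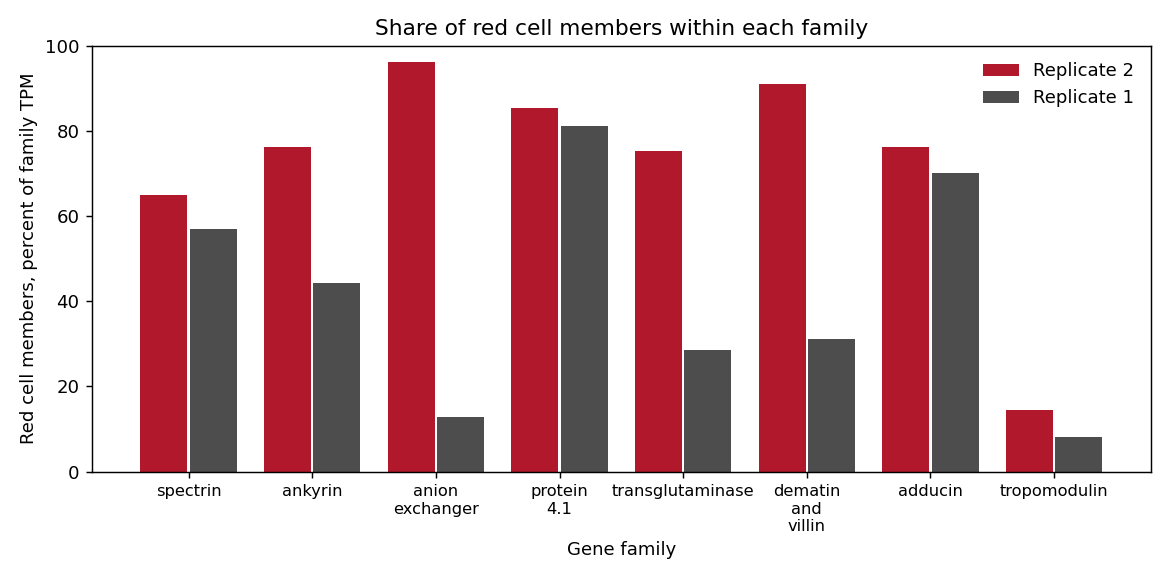
Percent of each family's summed TPM that lies on the red cell members, in replicate 2 (red) and replicate 1 (grey). The share of Slc4a1 among anion exchangers was 96.2% and 12.8%, while that of Epb41 in the protein 4.1 family was 85.5% and 81.2%.

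Alternative starts of Ank1 were then described, because ankyrin is known to be made from several promoters. The first 60 coding bases of a transcript from each of 3 starts show how the protein begins in each, with the ATG in capitals and the position of its first base on chromosome 8 (GENCODE M21 transcripts, GRCm38, plus strand).
Ank1-205, coding from 23035231: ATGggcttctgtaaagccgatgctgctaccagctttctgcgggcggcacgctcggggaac
Ank1-207, coding from 23058632: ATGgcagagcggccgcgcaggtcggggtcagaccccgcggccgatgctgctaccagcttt
Ank1-201, coding from 23139277: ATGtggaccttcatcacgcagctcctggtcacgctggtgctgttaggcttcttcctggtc
Ank1-205 and Ank1-207 are long transcripts, of the kind with 42 to 46 exons, and Ank1-201 is a short form with a coding length of 468 bases, against 5661 bases for Ank1-205. A short ankyrin from an internal promoter is known from skeletal muscle.

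The short internal start took the largest share of Ank1 in both libraries when counted per length. Transcripts starting between 23139030 and 23139105 held 50.7% of the gene's TPM in replicate 2 and 59.1% in replicate 1 (54.9% ± 5.97, SD, n = 2). By estimated counts, which follow length, they held 14.7% and 23.4%. Both kinds of transcript had more counts in replicate 2: transcripts with at least 42 exons, a grouping made after the values were seen, had 3222 and 958 counts, 3.78-fold after scaling, and the short internal ones 632 and 313 counts, 2.27-fold. The gene of microRNA-486, Mir486 (chr8:23142555-23142682), lies downstream of the internal start on the same strand and had 0 counts in these libraries of RNA longer than 200 nucleotides.

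Among the long transcripts the estimates placed the libraries on different starts. The start between 23058259 and 23058311 had 2547 counts in replicate 2 and 50.5 in replicate 1, or 29.4% and 1.66% of the TPM. Its main transcript, Ank1-207, had 10.43 TPM (deposited credibility interval 6.52 to 10.1) and 0 TPM (2.08e-07 to 1.63), intervals that do not overlap. The replicate 2 interval lies below its own point estimate. By posterior mean TPM the difference was smaller, with 24.3% of the gene on this start in replicate 2 and 7.02% in replicate 1. The furthest upstream start, between 22974844 and 22974882, had 0.08 counts in replicate 2 and 585 in replicate 1. However, the intervals of its transcript Ank1-209 (0.0672 to 3.27 and 1.15 to 3.20) overlapped. Its 3.4 TPM in replicate 1 lay above the interval there. By posterior mean TPM this furthest upstream start held 4.62% in replicate 2 and 12.9% in replicate 1. The start between 23035099 and 23035128 held 8.79% and 13.4%, a smaller difference. Reads over single first exons were not analysed here, so these shares are the authors' model estimates.

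Epb41 was divided among more transcripts, 15 of 18 with counts in at least 1 library. The furthest upstream start, between 132075264 and 132075321, held 66.5% of the TPM in replicate 2 and 49.4% in replicate 1 (58.0% ± 12.1, SD, n = 2). Most of it lay on Epb41-215 (33.81 and 32.21 TPM), whose level was nearly the same in both libraries. The start between 132049078 and 132049091 held 5.79% and 17.6%, and that between 132007431 and 132007438 held 0% and 23.5%. On the last, Epb41-205 had 0 TPM in replicate 2 (1.22e-06 to 1.90) and 11.37 TPM in replicate 1 (8.69 to 13.6), again with intervals apart. Epb41-209 and Epb41-211, transcripts of 644 and 607 bases, had 207 and 156 counts in replicate 2 against 2.38 and 0 in replicate 1, and through their short length made up 19.0% and 15.4% of the gene's TPM in replicate 2. Epb41-215 is annotated as a processed transcript without a coding frame, and transcripts annotated as coding held 12.4% of the TPM in replicate 2 and 48.3% in replicate 1. So the gene's even total, with a ratio of 1.29, was spread over transcripts whose estimates were not even.

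**Figure D4:**
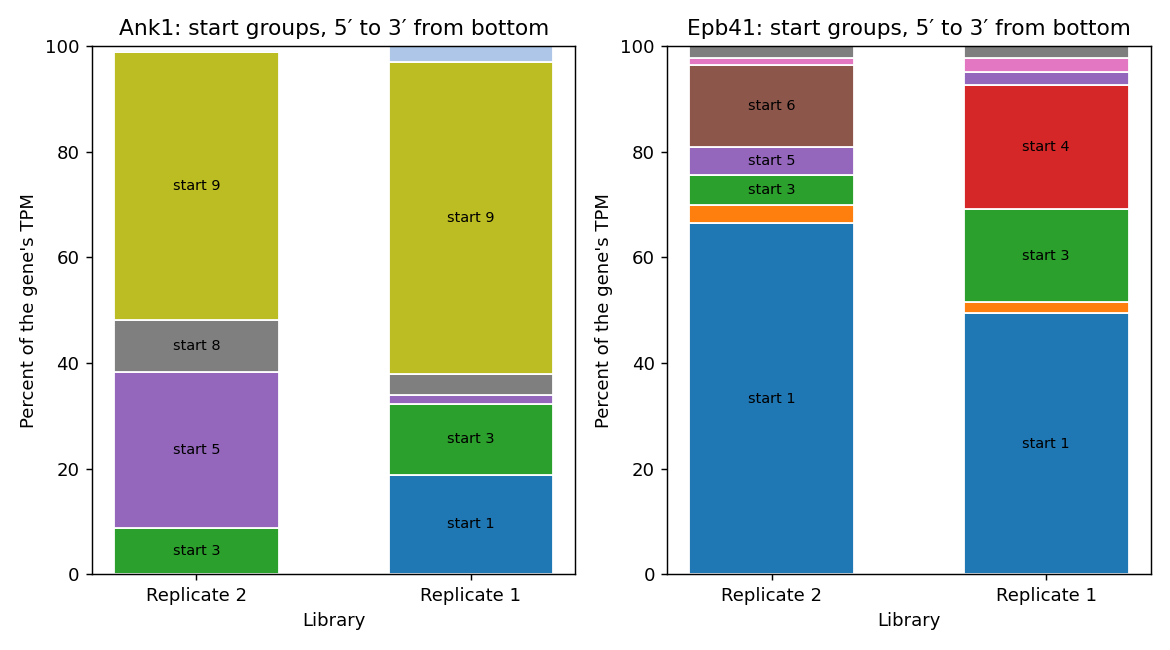
Percent of the TPM of Ank1 and of Epb41 on each group of annotated starts, numbered from the 5′ end of the gene, with replicate 2 left and replicate 1 right in each panel. Start groups under 1% in both libraries are not drawn, and the panels show start 9 of Ank1 at 50.7% and 59.1% and start 1 of Epb41 at 66.5% and 49.4%.

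An alternative exon of Epb41 that is known to complete the spectrin and actin binding domain was also read from the transcripts. The exon is known to be included as erythroid cells mature. The annotation holds it as a coding exon of 63 bases at chr4:131962924-131962986, on the minus strand, and it reads as follows.
Epb41 alternative exon: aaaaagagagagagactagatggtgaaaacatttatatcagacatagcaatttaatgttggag
Transcripts with this exon held 15.2% of the TPM of those that either include or skip it in replicate 2 and 26.3% in replicate 1 (20.8% ± 7.80, SD, n = 2). Their level was 6.86 TPM in replicate 2 and 16.81 TPM in replicate 1, while the transcripts that skip it, led by Epb41-215, had 38.15 and 47.17 TPM. The share is a model estimate over annotated transcripts, with no junction reads behind it, and Epb41-215 alone made up 33.81 and 32.21 TPM of the transcripts that skip it. In both libraries the transcripts without the exon were the more abundant.

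The remaining members had simpler estimates. Sptb-202, which starts at 76710023, held 97.4% of the Sptb TPM in replicate 2 and 96.9% in replicate 1, and the longer Sptb-201 held the rest. Add2 had a single annotated transcript in the tables. Tmod1-201 held 92.3% and 82.8% of its gene. Add1 was divided among 10 of 13 transcripts, of which Add1-213, a transcript of 2370 bases that covers the 3′ part of the gene, held 31.5% and 40.6%.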

How the data were processed

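Both G1E libraries have a gene and a transcript table. Their columns, per the file headers, are the authors' expected counts (raw estimates, some fractional), TPM scaled to a fixed sum, FPKM per length and library size, and each transcript's percent of its gene. Deposited bounds of TPM are credibility intervals, treated as a signal that is never negative. Per the deposited file records the assembly is mm10 with GENCODE M4. Aligner and quantifier were not given in the sources used here. Names, positions and starts came from GENCODE M21 on the same assembly, matched without versions (42462 of 43346 genes). All 72 transcripts of the members in the tables matched, and 70 had the same length in both annotations. The other 2 are transcripts of Dmtn. The 97 spike-in entries and 26248 numbered entries stayed out of tests and library sizes. They held 10351 and 7 counts in replicate 2 and 514 and 3 in replicate 1.

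Rounded counts went into an exact binomial test, two-sided, against the ratio of TMM library sizes (edgeR 4.0.16, R 4.3.3), with Benjamini-Hochberg adjustment over all genes with at least 10 counts and Clopper-Pearson 95% intervals. The steps were tested on simulated counts, drawn from a shared profile with set folds and counting error only. That simulation holds no spread between cultures, so it cannot show how far calls between these libraries would repeat. A gene at 0 in 1 library was given 0.5 counts for ranking only. Logarithms of TPM used a pseudocount of 1. Starts within 100 bases were grouped. Promoters came from RefSeq (6 of 9 members matched, 8 windows, GRCm38.p6). Named genes were all members, every gene that passed and the 5 with the highest mean TPM in the membrane and paralog lists, and the 5 genes nearest to Slc4a1. Add3, Tpm1, Mpp1, Xk, Sptan1, Tgm1, Tgm2, Slc4a2, Tstd2 and Mir486 were named after their values were seen, as were the markers. The members and lists were chosen with earlier results of these data known. Alternatives used DESeq2 1.42.0 size factors, total, protein-coding and spike-in scaling, other filters, fold limits and estimates, a negative binomial test, and each library alone. Figures and tests used matplotlib 3.10.9, NumPy 2.4.6, pandas 2.3.3 and SciPy 1.17.1 under Python 3.11.15. The labels call the libraries biological replicates, and nothing more on their cultures was used. Some results are not reported here.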

Additional observations from a re-analysis of the deposited data

How the results depend on the processing

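Scaling to spike-ins, whose input amount is not given, moved all genes by -4.50 log2 units and turned the members to 2 higher in replicate 2 and 7 in replicate 1, the membrane list to 1 and 26 and the paralogs to 1 and 14. Log2 ratios of replicate 2 over replicate 1 were then -3.89 for Sptb, -2.65 for Ank1, -4.13 for Epb41, -2.57 for Epb42, -4.21 for Add1, -3.58 for Add2 and -3.33 for Tmod1. Scaling to total counts moved all genes by -0.53, gave -0.16 for Epb41 and -0.24 for Add1, and left 4 members higher in replicate 2. With a 4-fold limit 2 members passed, and with a 1.5-fold limit 7, Sptb and Add2 among them. The paralog list had 1 gene higher in replicate 2 with at least 50 counts and 1 with the negative binomial test. Over all genes, calls higher in replicate 2 and in replicate 1 were 609 and 262, against 396 and 1021 with total counts, 36 and 11608 with spike-ins, 360 and 83 with at least 50 counts, 263 and 33 with the negative binomial test, 947 and 465 at 1.5-fold and 364 and 145 at 4-fold. The median mean level of the members, 22.97 TPM, was 140.6 when rescaled within nuclear protein-coding genes and 8.72 to 19.94 with each library left out in turn. By counts in place of TPM, the members' share was 68.2% of spectrins, 60.2% of adducins and 31.2% of transglutaminases (51.9% by TPM). By posterior mean TPM, Dmtn held 34.8% of its family (61.1% by TPM). Beta spectrins alone, chosen after seeing the data, gave Sptb 66.1%. The ratio cannot be computed with a library left out. No paired analysis was possible because the labels give 1 group. Whether amplification from 1 ng of RNA adds spread beyond counting error was not tested.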
